A study of Mus musculus with 24 samples.

Results

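Potassium channels carry the outward currents that end the cardiac action potential and hold the resting cell at a negative potential, and the 10 genes described here encode pore subunits of those channels and 1 small partner. The genes were Kcnj2, Kcnj3, Kcnj5, Kcnj8, Kcnj11, Kcnq1, Kcne1, Kcnh2, Kcnd2 and Kcna5, and they were taken by their symbol in the platform annotation. Each matched 1 transcript cluster, the unit that the array reports per gene, so 10 of the 19920 genes tested are the subject. They were measured with Affymetrix mouse gene arrays in 12 RNA samples, 2 in each of 6 groups. Embryonic stem (ES) cells at culture day 0, embryonic bodies (EB, aggregates of differentiating ES cells) at day 7 and cardiac bodies (CB, cultures taken on toward cardiomyocytes) at day 14 were the cultured groups, all grown in a serum-supplemented DMEM medium. Whole hearts came from E17.5 embryos, from mice at postnatal day 1 (P1) and from adults. The labels name no strain, no ES cell line and no age of the adults, and do not say whether the 2 samples of a group were separate cultures or animals, so p-values measure only the spread between these samples, which may be technical. The series asks how gene expression and splicing change as the heart develops and as cardiomyocytes form in culture.

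Inward rectifier channels (Kcnj genes) pass current best near the resting potential, and among them the ATP-sensitive channels open when cell energy falls and the acetylcholine-activated channels open when the vagus nerve acts on the atria. Delayed rectifiers (Kcnq1 with its partner Kcne1, and Kcnh2) open during the plateau and repolarize the cell, and inherited loss of function in any of these genes in humans lengthens the QT interval. The transient outward current, carried in the mouse ventricle mainly by the product of Kcnd2, gives the adult mouse its very brief action potential.

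Signals are given as log2 values of the deposited normalization, so a difference of 1 is a doubling, and array values are always listed with replicate 1 before replicate 2. A gene is said to have risen or fallen where limma's moderated test gave a Benjamini-Hochberg adjusted p under 0.05 over all 19920 genes of that comparison. Signals were not tested against background, and the level of one gene is not set against that of another, because probes differ in brightness. In whole hearts and mixed cultures, fewer cells of a type and less RNA per cell cannot be told apart. With 2 arrays a group, the number of arrays limits the precision.

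Some arrays stood apart. The adult heart sample of replicate 1 lacked the signals of atrial muscle that replicate 2 had: Myl7, the atrial regulatory light chain, read 5.42 and 11.3 on those arrays, and Bmp10, a right atrial growth factor, 3.74 and 10.1. All 6 atrial markers were lower in adult replicate 1, by 4.36 in the median, while the 8 cardiomyocyte markers differed by 0.05. Adult results are therefore also given without each of these arrays. The labels give no batch, so at gene level too adult age cannot be told apart from any difference in how the adult arrays were run. Cardiac bodies had a strong pluripotent signal, with Pou5f1 at 11.03 and 11.11 against 4.58 and 4.61 in E17.5 hearts. All 6 pluripotent markers were higher than in those hearts. Pou5f1 read 11.83 and 11.83 in ES cells and 8.465 and 8.517 in embryonic bodies. All 6 markers fell in embryonic bodies over ES cells (median change -3.29), and all 6 rose in cardiac bodies over embryonic bodies (median change 2.45). Within the cardiac bodies, replicate 1 read higher than replicate 2 for 9 of the 10 channel genes and for 8 of 8 cardiomyocyte markers, the markers by a median of 0.45. It was higher for 11610 of all 19920 genes. In E17.5 hearts replicate 1 was also higher for 9 of the 10, where it was for 8801 of all genes. The median difference of the 10 was 0.12 there and 0.33 in cardiac bodies. In embryonic bodies, 5 of 6 fibroblast markers were higher by over 1 in replicate 1, and Kcnj2 was lower there by 1.41. Array medians ran from 5.61 to 5.76 over all transcript clusters and from 5.93 to 6.18 over the tested genes. The correlation of the 2 arrays of a group across genes was lowest, 0.971, at P1.

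Promoters are shown for the genes that carry the clearest changes: Kcnj5 and Kcnh2, which rose together in cardiac bodies, and Kcnd2, which rose in the adult heart. RefSeq's table of start sites (GRCm38.p6) held 7 of the 10 genes. The Kcnj5 window is chr9:32344345-32344594 on the minus strand, the Kcnh2 window chr5:24329592-24329841 on the minus strand and the Kcnd2 window chr6:21215096-21215345 on the plus strand, each the 250 bases before the start. Capitals mark GGGCGG, the GC box that general factors such as Sp1 can bind, searched on both strands.
Kcnj5: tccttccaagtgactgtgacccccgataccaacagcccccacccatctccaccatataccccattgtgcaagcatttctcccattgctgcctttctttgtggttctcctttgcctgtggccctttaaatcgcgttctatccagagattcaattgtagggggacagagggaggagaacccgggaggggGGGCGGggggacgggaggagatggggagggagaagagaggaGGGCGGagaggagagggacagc
Kcnh2: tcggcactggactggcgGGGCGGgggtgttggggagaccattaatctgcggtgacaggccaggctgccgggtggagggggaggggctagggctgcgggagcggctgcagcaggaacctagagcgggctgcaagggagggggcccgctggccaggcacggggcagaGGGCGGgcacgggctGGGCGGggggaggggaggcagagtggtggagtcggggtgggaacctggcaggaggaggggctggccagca
Kcnd2: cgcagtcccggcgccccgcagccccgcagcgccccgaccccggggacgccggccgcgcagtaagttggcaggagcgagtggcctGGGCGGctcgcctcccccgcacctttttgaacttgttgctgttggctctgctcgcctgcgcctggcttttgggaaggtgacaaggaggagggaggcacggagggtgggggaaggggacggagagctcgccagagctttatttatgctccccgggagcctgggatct
The Kcnh2 start used by the table lies inside the annotated gene and not at its outer end. Kcnj5 had 2 of these boxes, Kcnh2 had 3 and Kcnd2 had 1, and with Kcnj2 that made 4 of the 7 gene windows, against 32.7% of all 32851 windows. The letters AGATAA were in 0 of the 7 windows and in 10.0% of all, and TATAAA was in 0 of 7 and in 12.4% of all. GC content was 58.0% for Kcnj5, 73.6% for Kcnh2 and 68.8% for Kcnd2, against a median of 52.4% over all windows. Motif matches are a description of these letters only.

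**Figure D1:**
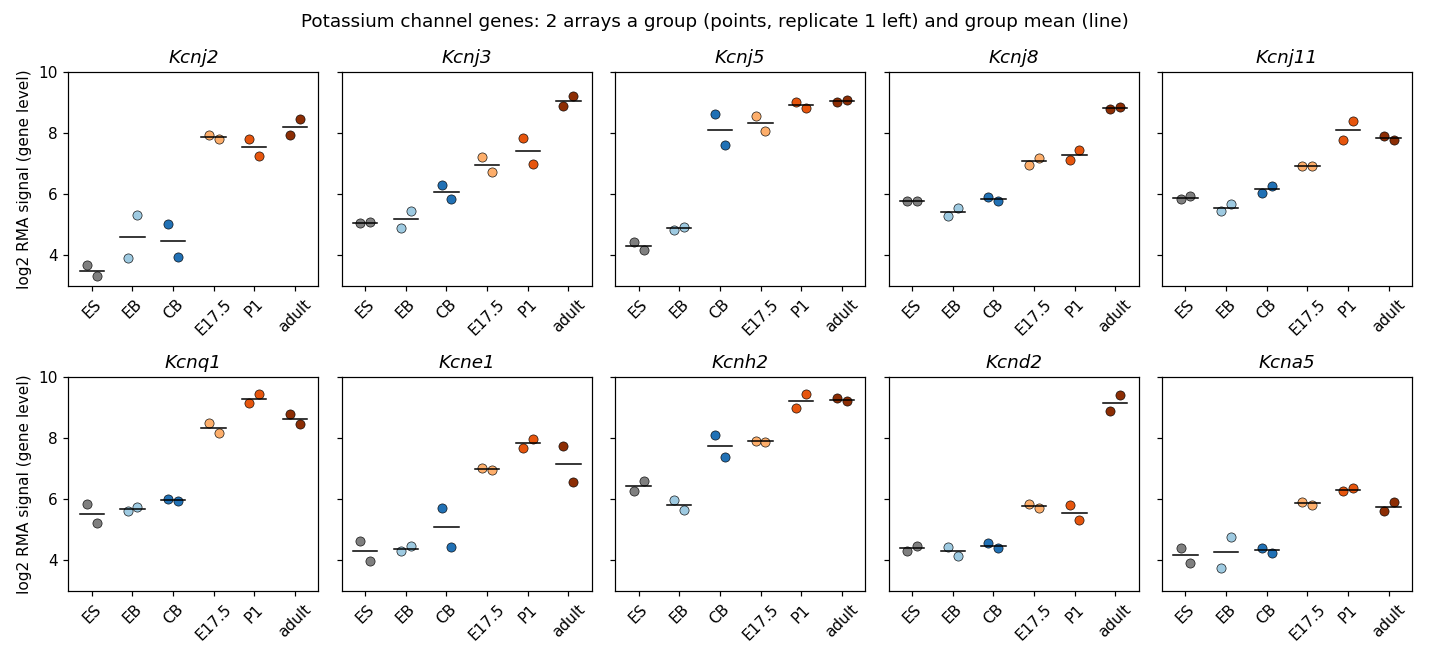
Log2 signal of each of the 10 potassium channel genes (vertical axis) on the 12 arrays, by group along the horizontal axis in order of culture day and then of heart age; points are single arrays and lines are group means of 2. Kcnj5 and Kcnh2 in cardiac bodies overlap the E17.5 hearts, Kcnd2 is high in the adult hearts only, and Kcnq1 is highest at P1.

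Among the inward rectifiers, Kcnj5 showed the largest change in culture. This gene encodes a pore subunit of the acetylcholine-activated channel of the atria and sinus node. It read 4.44 and 4.16 in ES cells, 4.84 and 4.91 in embryonic bodies, and 8.61 and 7.59 in cardiac bodies. Both cardiac body arrays lay far above all 4 earlier culture arrays. The rise over embryonic bodies was 3.23 ± 0.28 (log2 change ± SE, adjusted p = 1.28e-05), which is 9.37-fold, and over ES cells it was 3.80 ± 0.28 (adjusted p = 3.41e-06). Without either cardiac body array the rise over embryonic bodies was 2.72 or 3.74 and was still called. Hearts read 8.56 and 8.06 at E17.5, 9.01 and 8.81 at P1, and 9.01 and 9.08 in adults, so the cardiac bodies overlapped the E17.5 hearts. The change of cardiac bodies against E17.5 hearts was -0.21 ± 0.28 (adjusted p = 0.697), and it ran from -0.72 without cardiac body replicate 1 to 0.30 without replicate 2. None of the 3 comparisons among hearts was called for Kcnj5.

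Kcnj3, the other subunit of the same acetylcholine-activated channel, had another course. It read 5.05 and 5.07 in ES cells, 4.90 and 5.45 in embryonic bodies, and 6.29 and 5.83 in cardiac bodies. The cardiac bodies were above both earlier groups on every array, but the change over ES cells, 1.00 ± 0.30, missed the threshold (adjusted p = 0.0533). Hearts read 7.21 and 6.71 at E17.5, 7.83 and 6.98 at P1, and 8.89 and 9.22 in adults. P1 and E17.5 overlapped, and both adult arrays were above them. Kcnj3 rose by 1.65 ± 0.30 in adult over P1 hearts (adjusted p = 0.00115), by 1.81 without adult replicate 1 and by 1.49 without adult replicate 2. Against E17.5 hearts the cardiac bodies were lower by 0.90 (change -0.90 ± 0.30, adjusted p = 0.0444), a call lost in 10 of 18 alternatives.

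Kcnj2 encodes the main pore of the inward rectifier current that sets the resting potential of ventricular muscle. It read 3.67 and 3.33 in ES cells, 3.90 and 5.31 in embryonic bodies, and 5.01 and 3.95 in cardiac bodies. The embryonic and cardiac bodies overlapped, and no comparison among cultures was called. Hearts read 7.95 and 7.81 at E17.5, 7.80 and 7.25 at P1, and 7.95 and 8.45 in adults, and no comparison among the 3 heart groups was called. All 6 heart arrays were above all 6 culture arrays. In cardiac bodies Kcnj2 fell by 3.40 on the log2 scale against E17.5 hearts (SE 0.42, adjusted p = 0.000107), a signal 10.5 times lower, the largest fall of the 10 genes in that comparison. Kcnj2 lay below the array median of the tested genes in all 6 culture arrays, so this fold rests on a low signal.

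Kcnj8 and Kcnj11 encode the pores of ATP-sensitive channels, Kcnj11 mainly that of heart muscle and pancreatic beta cells, and Kcnj8 mainly that of vascular smooth muscle, pericytes and endothelium. Kcnj8 read 6.97 and 7.19 in E17.5 hearts, 7.10 and 7.44 at P1, and 8.79 and 8.84 in adults. The adult arrays were apart from the younger hearts, whose groups overlapped. The rise over P1 was 1.54 ± 0.18 (adjusted p = 5.52e-05) and was 1.56 and 1.52 without adult replicate 1 and 2. In the same comparison 4 of 4 macrophage markers rose, by a median of 1.38, and the summed level of the macrophage list was 9.70 to 9.84 in adult and 8.30 to 8.44 in P1 hearts. Of 7 smooth muscle and pericyte markers 1 rose and 4 fell, the median change being -0.93. Rgs5, a pericyte marker, read 10.6 and 10.5 in adults, against 9.54 and 8.46 at P1, and was the only riser of that list, while Notch3 fell by 1.33 and Cspg4 by 0.93 on the log2 scale and Pdgfrb changed by 0.12. Of 6 endothelial markers 1 rose and 1 fell, with a median change of 0.16. The part of other cells in the Kcnj8 rise was not tested.

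Kcnj11 changed earlier, around birth. It read 6.93 and 6.92 at E17.5, 7.78 and 8.39 at P1, and 7.91 and 7.79 in adults. Both P1 arrays were above both E17.5 arrays, and adults and P1 overlapped. The rise in P1 over E17.5 hearts was 1.16 ± 0.21 (adjusted p = 0.00611). Cultures read 5.83 and 5.93 in ES cells, 5.45 and 5.67 in embryonic bodies, and 6.04 and 6.27 in cardiac bodies, with no comparison among them called. In cardiac bodies Kcnj11 fell by 0.77 on the log2 scale against E17.5 hearts (SE 0.21, adjusted p = 0.0164), and Kcnj8 fell by 1.23 (SE 0.18, adjusted p = 0.000374). Kcnj8 read 5.77 and 5.77 in ES cells, 5.28 and 5.55 in embryonic bodies, and 5.92 and 5.78 in cardiac bodies, also with no comparison among them called.

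The delayed rectifier genes were highest at P1 or level after it. Kcnq1, the pore of the slow delayed rectifier, read 9.16 and 9.44 at P1, against 8.51 and 8.17 at E17.5, and the rise was 0.96 ± 0.22 (adjusted p = 0.0294). Adult hearts read 8.79 and 8.48, both below the P1 arrays, and Kcnq1 fell by 0.66 on the log2 scale (SE 0.22, adjusted p = 0.042). That fall lost its call in 6 of 18 alternatives. It was -0.81 without adult replicate 1, -0.51 without adult replicate 2 and -0.33 with the median of exon-level values. The call was also lost without P1 replicate 2 and without either cardiac body array. Cultures read 5.85 and 5.22 in ES cells, 5.62 and 5.76 in embryonic bodies, and 6.02 and 5.95 in cardiac bodies, all below every heart array. In cardiac bodies Kcnq1 was 2.35 lower than in E17.5 hearts (change -2.35 ± 0.22, adjusted p = 1.52e-05).

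Kcne1 encodes the single-span subunit that slows the Kcnq1 channel. It read 7.04 and 6.94 at E17.5, 7.69 and 7.99 at P1, and 7.76 and 6.58 in adults. The adult arrays lay 1.18 apart, the widest gap of the 10 genes in that group, and no comparison among hearts was called. ES cells read 4.65 and 3.97, embryonic bodies 4.32 and 4.46, and cardiac bodies 5.71 and 4.45, and these groups overlapped. The fall against E17.5 hearts, -1.91 ± 0.41 (adjusted p = 0.00455), was -1.28 without cardiac body replicate 2 (adjusted p = 0.0684). Across the 12 arrays Kcnq1 and Kcne1 correlated at r = 0.973, the highest of the pairs among the 10 genes, as a description over arrays that share groups.

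Kcnh2, the pore of the rapid delayed rectifier, was the second gene that rose in culture. It read 6.28 and 6.61 in ES cells, 5.97 and 5.65 in embryonic bodies, and 8.12 and 7.37 in cardiac bodies. Both cardiac body arrays were above the 4 earlier arrays. The rise over embryonic bodies was 1.93 ± 0.25 (adjusted p = 0.000295), and that over ES cells, 1.30 ± 0.25 (adjusted p = 0.0051), was not called without cardiac body replicate 1 (0.93, adjusted p = 0.0767) or ES replicate 1 (1.14, adjusted p = 0.0689). Cardiac bodies overlapped the E17.5 hearts, which read 7.92 and 7.87, and their change against these was -0.15 ± 0.25 (adjusted p = 0.769). P1 hearts read 8.98 and 9.45, and the rise over E17.5 was 1.32 ± 0.25 (adjusted p = 0.00905). Adults, at 9.31 and 9.21, overlapped P1.

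Kcnd2 had the most sharply adult pattern. It encodes a pore of the fast transient outward current. It read 5.85 and 5.70 in E17.5 hearts, 5.81 and 5.32 at P1, and 8.90 and 9.40 in adults. The adult arrays were more than 3 above every other array, and P1 and E17.5 overlapped. The rise over P1 was 3.59 ± 0.22 (adjusted p = 4.87e-07), which is 12.01-fold, and it was 3.84 without adult replicate 1 and 3.33 without adult replicate 2. ES cells read 4.31 and 4.49, embryonic bodies 4.43 and 4.16, and cardiac bodies 4.55 and 4.399. Kcnd2 lay below the array median of the tested genes in all 6 culture arrays and in 4 of 6 heart arrays, so its values outside the adult heart are low signals. In cardiac bodies it was still 1.30 lower than in E17.5 hearts (change -1.30 ± 0.22, adjusted p = 0.00104).

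Kcna5 encodes a pore of an ultrarapid delayed rectifier, an atrial current in humans that is also present in mouse ventricle. It read 5.93 and 5.82 at E17.5, 6.28 and 6.36 at P1, and 5.63 and 5.90 in adults. It lay below the array median of the tested genes on 4 of 6 heart arrays and on all 6 culture arrays. No comparison among hearts was called. ES cells read 4.42 and 3.91, embryonic bodies 3.75 and 4.77, and cardiac bodies 4.42 and 4.23, and the 3 culture groups overlapped. In cardiac bodies Kcna5 fell by 1.55 on the log2 scale against E17.5 hearts (SE 0.28, adjusted p = 0.00175).

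Set out by comparison, 0 of the 10 genes were called in embryonic bodies against ES cells by limma, where 20.6% of all genes were called, and 2 had an unadjusted p under 0.05. In cardiac bodies against embryonic bodies 2 rose, Kcnj5 and Kcnh2, and none fell, against 11.9% of all genes called, 5.45% that rose and 6.43% that fell. In the same comparison 8 of 8 cardiomyocyte markers rose, by a median of 5.68, and 6 of 6 pluripotent markers rose by a median of 2.45. In cardiac bodies against ES cells the same 2 channel genes rose and none fell, against 9.8% of all genes called, 6.19% that rose and 3.61% that fell. The median change of the 10 genes was 0.52 over embryonic bodies, where that of all genes was -0.01.

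Within hearts, 3 of the 10 rose in P1 over E17.5 hearts (Kcnj11, Kcnq1 and Kcnh2), and none fell, where 5.13% of all genes were called, 2.08% rose and 3.05% fell. All 3 calls were lost when either E17.5 array was left out, with changes of 0.79 to 1.34, and those of Kcnq1 and Kcnh2 were lost without P1 replicate 2. In adult over P1 hearts 3 rose (Kcnd2, Kcnj3 and Kcnj8) and 1 fell (Kcnq1), where 30.2% of all genes were called, 15.6% rose and 14.7% fell. In adult over E17.5 hearts 5 rose, namely Kcnd2 by 3.37 ± 0.22, Kcnj3 by 2.09 ± 0.30, Kcnj8 by 1.74 ± 0.18, Kcnh2 by 1.37 ± 0.25 and Kcnj11 by 0.92 ± 0.21, where 36.1% of all genes were called and 18.1% rose. The same 5 were called without either adult array. With the median of exon-level values 3 of them were called, and Kcnj8 (0.55, adjusted p = 0.253) and Kcnh2 (0.61, adjusted p = 0.1) were not. Of the single probe sets in that comparison, 16 of 17 of Kcnh2 were higher in adults, with a median change of 1.16. For Kcnj8 4 of 5 were higher, with a median change of 0.29. In adult hearts the atrial markers were lower than at P1 for 3 of 6 by call, with a median change of -1.49, and the low atrial values were those of replicate 1. Also in adult against P1 hearts, 4 of 4 ventricular markers fell (median change -0.88), and of 6 fibroblast markers 1 rose and 3 fell (median change -1.29). Their part in the adult channel changes was not tested.

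The cultures were set against hearts to ask how far their channel genes match those of the developing heart. In cardiac bodies 8 of the 10 fell and none rose against E17.5 hearts, where 23.7% of all genes were called and 11.6% fell. Only Kcnj5 and Kcnh2 were not called. The median change of the 10 was -1.26, and that of all genes was -0.02. On both cardiac body arrays 7 of the 10 lay below the array median of the tested genes, and on both E17.5 arrays 2 did. The sizes of most of these falls therefore rest on low signals. Of the 8 cardiomyocyte markers 5 fell, by a median over the list of -1.06, and the summed level of that list was 14.8 to 15.2 in cardiac bodies and 15.6 to 15.7 in E17.5 hearts. All 6 endothelial markers fell, by a median of 4.03, as did all 6 fibroblast markers, by a median of 5.11. Of 7 smooth muscle and pericyte markers 4 fell and none rose (median change -0.72). All 4 ventricular markers fell (median change -1.17), and of 6 atrial markers 3 fell and none rose (median change -1.55). Of 5 pacemaker and conduction markers 2 rose and none fell (median change 0.67). The part of these cell types in the lower channel signals was not tested. Without cardiac body replicate 1 the calls of Kcnj3 and Kcnj11 were lost, and without replicate 2 those of Kcnj3 and Kcne1, which left 6 of the 8 each time.

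Against adult hearts 10 of 10 fell in cardiac bodies, where 47.3% of all genes were called and 24.3% fell. The falls ran from 0.95 on the log2 scale for Kcnj5 (SE 0.28, adjusted p = 0.0149) to 4.67 for Kcnd2 (SE 0.22, adjusted p = 1.19e-08), with a median change of -2.37 against -0.09 for all genes. When single arrays were left out, Kcnj5 lost its call without either adult array or cardiac body replicate 2, and the other genes kept theirs. Without that cardiac body array the Kcnj5 change was -0.44. With the median of exon-level values 7 of the 10 were called, and those lost were Kcnj5 (-0.75, adjusted p = 0.105), Kcne1 (-0.77, adjusted p = 0.111) and Kcnh2 (-0.61, adjusted p = 0.0828). Of the single probe sets, 16 of 17 of Kcnh2 were lower in cardiac bodies, with a median change of -1.29. All 5 of Kcnj5 were lower, with a median change of -0.93. These comparisons share the cardiac body arrays, so the counts against the 2 heart ages are not separate evidence.

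**Figure D2:**
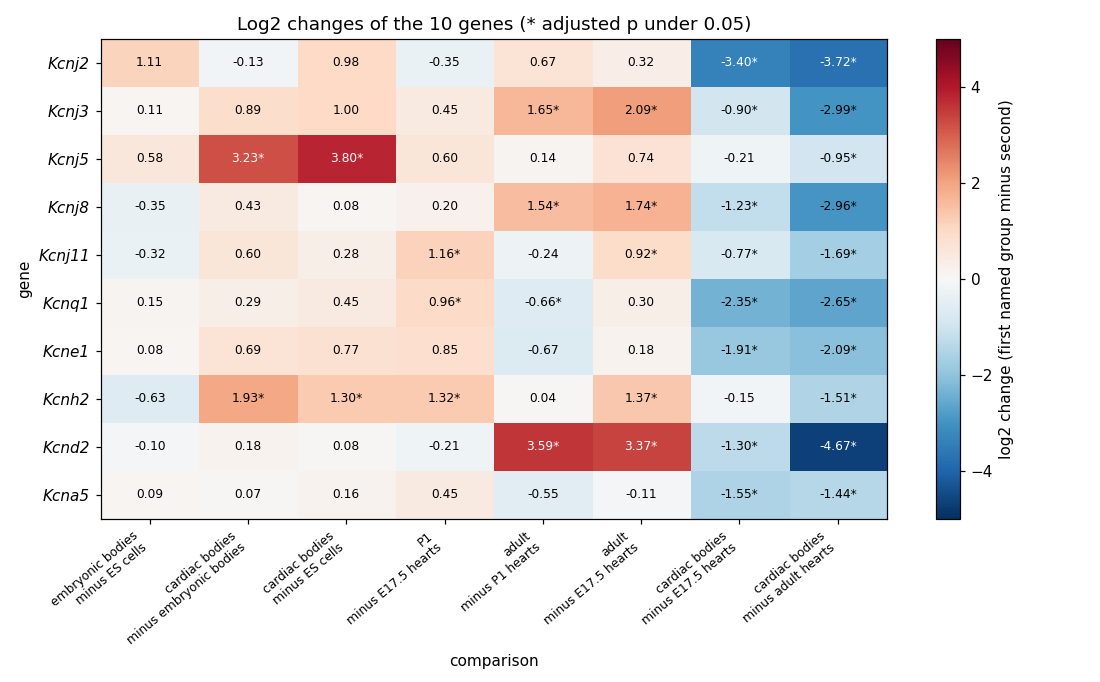
Log2 change of the 10 genes (rows) in the 8 comparisons (columns), the first named group minus the second; red is higher, blue is lower, and a star marks an adjusted p under 0.05. In the 2 columns of cardiac bodies against hearts 8 and 10 genes fell, and Kcnd2 changed by 3.59 in adult over P1 hearts.

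**Figure D3:**
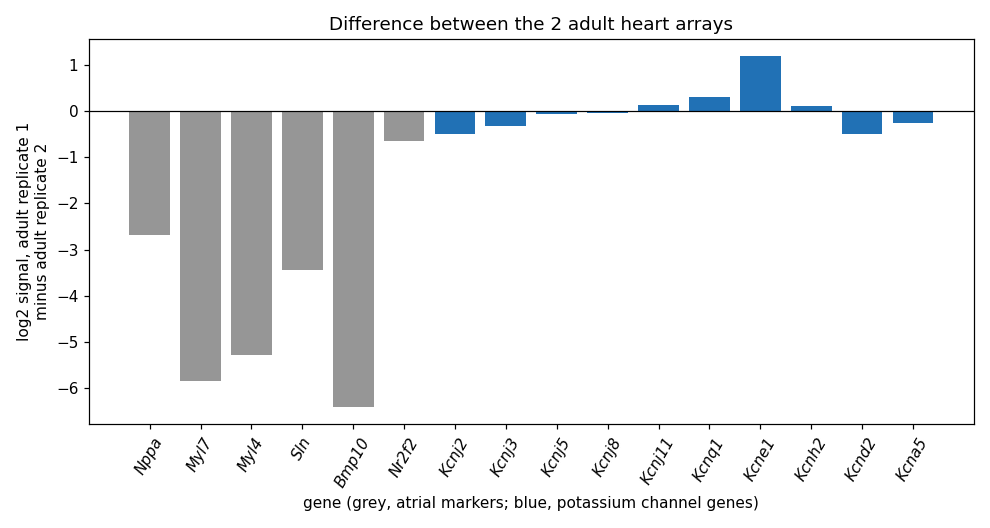
Difference in log2 signal between the adult heart arrays, replicate 1 minus replicate 2 (vertical axis), for 6 atrial markers in grey and the 10 channel genes in blue. Myl7 and Bmp10 differ by over 5, and among the channel genes Kcne1 differs by 1.18.

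Of 13 partners of these channels measured, 0 were called by limma in embryonic bodies over ES cells, where 20.6% of all genes were. There, 1 had an unadjusted p under 0.05. In cardiac bodies over embryonic bodies 0 were called by limma (2 at an unadjusted p under 0.05), where 11.9% of all genes were. In P1 over E17.5 hearts 2 rose, where 2.08% of all genes rose. In adult over P1 hearts 1 rose and 2 fell, where 15.6% of all rose and 14.7% fell. In adult over E17.5 hearts 4 rose and 4 fell, where 18.1% of all rose and 18% fell. In cardiac bodies against E17.5 hearts 7 fell and none rose, where 11.6% of all fell and 12.1% rose. Kcnip2, the calcium-binding subunit of the transient outward channel, read 7.60 and 7.41 at E17.5, 8.47 and 9.15 at P1, and 9.31 and 8.998 in adults. It rose by 1.31 ± 0.23 in P1 over E17.5 hearts (adjusted p = 0.005), a comparison in which Kcnd2 changed by -0.21. Kcnd3, a further transient outward pore, read 7.41 and 7.52 in adults, against 5.45 and 5.68 at P1, and rose by 1.90 ± 0.21 (adjusted p = 3.19e-05). Kcna4, the pore of the slow transient outward current, fell by 1.17 in the same comparison (SE 0.33, adjusted p = 0.0186).

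Abcc9, the sulphonylurea receptor of vascular and cardiac ATP-sensitive channels, read 5.53 and 4.81 in cardiac bodies, against 9.41 and 9.25 in E17.5 hearts. Its change, -4.16 ± 0.29 (adjusted p = 1.08e-06), stands beside those of Kcnj8 (-1.23) and Kcnj11 (-0.77), and the differences between these genes were not tested. Abcc8, the receptor of the beta cell and of atrial muscle in mice, fell by 1.65 in that comparison (SE 0.21, adjusted p = 0.000116) and rose by 0.81 in P1 over E17.5 hearts (SE 0.21, adjusted p = 0.0423). Kcne3 and Kcne4, small subunits that can also bind the Kcnq1 channel, fell in cardiac bodies against E17.5 hearts by 1.30 (SE 0.29) and 0.89 (SE 0.17). These are low signals: Kcne3 read 3.94 and 3.80 in cardiac bodies and 5.29 and 5.06 at E17.5, and Kcne4 4.11 and 3.80, and 4.78 and 4.90. In both cardiac body arrays all 13 partners lay below the array median of the tested genes, and at E17.5 9 and 10 of them did.

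Of the 50 other potassium channel genes measured, partners included, 12 fell and 2 rose in cardiac bodies against E17.5 hearts, 24% and 4% of them, where 11.6% of all genes fell and 12.1% rose. The 2 that rose were Kcnk1 and Kcnk5, pores of background (leak) channels. Kcnk5 read 7.91 and 8.46 in cardiac bodies, against 5.45 and 5.44 in E17.5 hearts, and it was at 8.37 and 8.41 in ES cells. In cardiac bodies over embryonic bodies 4 rose and 1 fell, 10% of them against 11.9% of all genes called, and the largest rise was that of Kcng2, a modifier subunit that makes no channel by itself, by 1.61 ± 0.24 (adjusted p = 0.000764). In adult over P1 hearts 8 rose and 6 fell, 28% of them, near the 30.2% of all genes called and so no result about the list. Among those that rose were Kcnv2, another modifier subunit, by 1.80 ± 0.18 (adjusted p = 1.81e-05), and Kcnk3, an acid-sensitive leak channel, by 1.46 ± 0.31 (adjusted p = 0.00318).

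Of 8 regulators of repolarization genes measured, 3 rose and 1 fell in cardiac bodies over embryonic bodies, where 5.45% of all genes rose and 6.43% fell. The risers were Irx4, a ventricular homeobox factor, by 2.51 ± 0.27, Tbx5, a T-box factor of the early heart, by 2.48 ± 0.36, and Nkx2-5, a cardiac homeobox factor, by 1.44 ± 0.25. The gene that fell was Hey2, a ventricular transcriptional repressor, which fell by 1.95 on the log2 scale (SE 0.32, adjusted p = 0.00156). Irx5, which in mice represses Kcnd2 across the ventricular wall, read 4.71 and 5.03 in ES cells, 5.995 and 7.94 in embryonic bodies, and 6.27 and 6.29 in cardiac bodies, and was called in embryonic bodies over ES cells only (2.10 ± 0.44, adjusted p = 0.00445).

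By correlation over the 12 arrays among 9889 genes whose group means spanned at least 1, the genes most like Kcnj5 were Mhrt (r = 0.994), Pln (r = 0.990), the phospholamban gene, and Popdc2 (r = 0.989). Those most like Kcnd2 were Lrtm1 (r = 0.991), Ccl6 and Papss2. Those most like Kcnj8 were Gstm6 (r = 0.991), Lyz2 and Tyrobp, the last 2 being genes of myeloid cells. Kcnq1 was most like Colq (r = 0.986), Carns1 and Abcc8, and Kcnh2 was most like Coro6 (r = 0.979), Phyh and Fitm1. The nearest genes were Cpq for Kcnj2, Il15ra for Kcnj3, Trak1 for Kcnj11, Cspg4 for Kcne1 and Sema3g for Kcna5, with r from 0.98 to 0.993. The arrays share groups, so these values describe likeness of pattern only.

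The exon-level values of the same samples were examined because the series asks about splicing. They give the signal of single probe sets, and 8 of the 10 genes had at least 4 of them, 71 in all. The splicing index, the probe set signal minus the gene-level signal, counted as changed where it moved by 1 or more and its adjusted p was below 0.05. In adult against P1 hearts 5 of 57 tested probe sets were called (8.8%), where 13.6% of all probe sets were. In adult against E17.5 hearts 4 of 56 were called (7.1%), where 16.5% of all were, and in cardiac bodies against adult hearts 4 of 26 (15.4%), where 15.9% of all were. By the same limma test 0 of 56 were called in P1 against E17.5 hearts (0% of all, and 8 of these at an unadjusted p under 0.05), 0 of 24 in cardiac bodies against E17.5 hearts (0.245% of all, and 3 at an unadjusted p under 0.05) and 0 of 14 in cardiac bodies against ES cells (0.109% of all, and 5 at an unadjusted p under 0.05). The shares of these genes were near or below those of all probe sets and are no result about the channels. All calls fell in comparisons with the adult group, and adult age cannot be told apart from any difference in how those arrays were run, since the labels give no batch.

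The higher adult signal of Kcnd2 was present in every probe set. All 8 of its probe sets were higher in adult than in P1 hearts, by 1.35 to 4.27. None was tested for its index, because the gene lay below the median level in P1 hearts. For Kcnj5, all 5 probe sets were higher in cardiac bodies than in embryonic bodies, by 1.53 to 3.51.

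Kcnh2 was uneven. Its probe sets are given by number, since their positions in the gene are not in the annotation used. In adult against P1 hearts the first 6 of its 17 probe sets were all lower, by changes from -1.98 to -0.03, and the last 5 were all higher, by 0.37 to 1.77. Of the 6 between, 3 were lower, with changes from -0.42 to 0.62. The outer blocks end where the sign changes in these same data, so they are a description only. Probe set 10528550 read 8.15 and 8.26 in adults, against 9.97 and 10.4 at P1, and its index changed by -2.03 ± 0.24 (adjusted p = 0.00212). Probe set 10528565 read 10.3 and 10.4 in adults, against 8.28 and 8.89 at P1, with an index change of 1.72 ± 0.41 (adjusted p = 0.0254). The gene-level change of Kcnh2 in this comparison was 0.04. Over its 17 probe sets, 8 higher and 9 lower, the median change was -0.03. The median of its exon-level values on each array changed by -0.79 (limma adjusted p = 0.046). That median is taken across probe sets of unlike brightness, so it need not follow the typical change.

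The Kcnj8 rise was uneven over its probe sets. Probe set 10549104 read 10.2 and 9.57 in adults, against 6.73 and 7.27 at P1, a change of 2.89, and 10549106 changed by 0.01. Of the 5 Kcnj8 probe sets 4 were higher in adults and 1 was lower, with a median change of 0.99 and a range from -0.97 to 2.89. The median of the exon-level values of Kcnj8, taken on each array across probe sets, changed by 0.20 (limma adjusted p = 0.714). The gene-level change was 1.54.

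**Figure D4:**
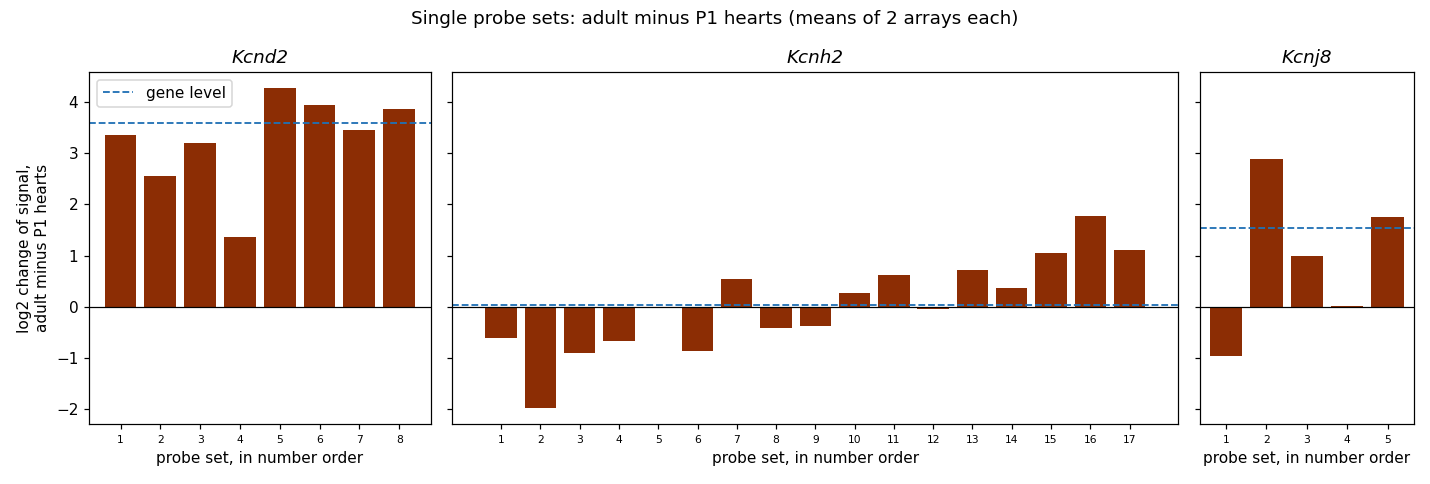
Change in log2 signal of every probe set of Kcnd2, Kcnh2 and Kcnj8, adult minus P1 hearts (vertical axis, means of 2 arrays each), in order of probe set number, with the gene-level change as a dashed line. Bars of Kcnd2 are all above 0, those of Kcnh2 run from -1.98 to 1.77, and one probe set of Kcnj8 changes by 2.89.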

How the data were processed

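RNA was extracted with TRIzol and, after ribosomal RNA reduction and amplification, labelled and hybridized, per the labels' protocols. The authors deposited log2 values made by RMA in Affymetrix Power Tools, per the submitters' processing notes; the sources used here give neither versions nor a genome build. These values, 35556 transcript clusters at gene level and 241576 probe sets at exon level, were used without further normalization. Clusters with 1 gene symbol were kept (21789), the brightest cluster standing for each of 1015 genes with several.

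limma 3.58.1 (R 4.3.3; lmFit, eBayes) was run on the gene-level values of all 12 arrays with 6 group means (6 residual and 6.2 prior degrees of freedom), with Benjamini-Hochberg adjustment within each of 8 comparisons. The same model was fitted to the splicing index of 197711 probe sets of genes with at least 4. It was called only where the gene reached the median level in both groups and the probe set reached it in 1 or both. Both fits were tested on simulated data. Motifs were searched in RefSeq windows with Python 3.11.15.

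The 10 genes, the lists of partners, regulators and markers, and the comparisons were chosen with earlier results of these data known. All 10 genes are named. For each, the 3 genes most alike over the arrays were taken. Of the lists, channel partners and the largest called changes are named. Some listed partners and regulators were not analysed here. Replicate numbers did not pair samples: over 15 pairs of groups the deviations of same-numbered arrays correlated at -0.18 to 0.29, and 2 pairs exceeded 0.1. Alternatives were the replicate number as a block, a filter on dim genes, quantile normalization, an intensity trend, the mean of all clusters, the median of exon-level values, and leaving out each array. The median of exon-level values was taken on each array across the probe sets of a gene.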

Additional observations from a re-analysis of the deposited data

How the results depend on the processing

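Of 1440 values (each of the 10 genes in 8 comparisons under 18 alternatives) 1386 kept their side of the threshold, 40 lost the call, 13 gained one and 1 changed sign with a call. Of the 1386, 30 changed sign, none of them called in either setting. The change of sign with a call was that of Kcnh2 in adult over P1 hearts, -0.79 with the median of exon-level values (adjusted p = 0.046) against 0.04. The median change over its 17 probe sets was -0.03. With that median the adult over E17.5 count of called genes was 3 in place of 5 (without Kcnj8 and Kcnh2), and the count of cardiac bodies against adult hearts 7 in place of 10. Filtering dim genes, quantile normalization, the intensity trend and the mean of clusters changed 1 value in all, Kcnj3 in cardiac bodies over ES cells, which became called.

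With the replicate number as a block, the called genes numbered 0 in embryonic bodies over ES cells, 2 in cardiac bodies over embryonic bodies, 2 over ES cells, 3 in P1 over E17.5 hearts, 4 in adult over P1, 6 in adult over E17.5, 7 in cardiac bodies against E17.5 and 10 against adult hearts, and 16 probe sets were called. The block added Kcnj5 in adult over E17.5 hearts and lost Kcnj3 in cardiac bodies against E17.5 hearts, and changed no other call.

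Leaving out 1 array gave 0 to 1 called genes in embryonic bodies over ES cells (1 without EB replicate 1, which was Kcnj2), 2 to 4 in cardiac bodies over embryonic bodies (4 without either P1 array), 1 to 3 in cardiac bodies over ES cells (1 without ES replicate 1 or cardiac body replicate 1), 0 to 3 in P1 over E17.5 hearts (0 without either E17.5 array, 1 without P1 replicate 2), 3 to 4 in adult over P1, 5 to 6 in adult over E17.5, 6 to 8 in cardiac bodies against E17.5 and 9 to 10 against adult hearts. Called probe sets, 13 in all, numbered 5 to 20 (5 without adult replicate 1, 8 without adult replicate 2, 20 without EB replicate 2), 37 with no filter on level and 31 with the median of the other probe sets in place of the gene level. The cause of these shifts was not tested.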
